A study of Mus musculus with 6 samples.

Results

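Phospholipases A2 and the leukotriene pathway were followed in cultured mouse microglia, the brain's own macrophages. The genes were chosen by symbol from a table of 26096 genes. Of 9 listed symbols, 8 had a row and all 8 passed the filter on low values described with the test. Pla2g7, which encodes the secreted hydrolase of platelet-activating factor, had no row and was not analysed here. The data are RNA sequencing libraries from WT microglia given medium that bone marrow-derived macrophages (BMDMs) had conditioned. In 3 FeM CM libraries the BMDMs were ferroptotic, that is, dying by iron-dependent lipid peroxidation, and in 3 C CM libraries they were normal. The sources used here do not give the agent that caused ferroptosis, the length of exposure, the age of the animals or how the microglia were obtained, and the labels name no separate cultures. P-values therefore rest on the spread among 3 libraries per group, part or all of which may be technical.

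Phospholipases A2 release fatty acids, arachidonic acid among them, from the middle position of membrane phospholipids. 5-lipoxygenase (Alox5), helped by its activating protein FLAP (Alox5ap), turns free arachidonic acid into the unstable epoxide leukotriene A. Leukotriene A hydrolase (Lta4h) converts that epoxide into leukotriene B, a chemoattractant, and leukotriene C synthase (Ltc4s) joins it to glutathione to give the cysteinyl leukotrienes, which act on receptors such as Cysltr1. In brain and other tissues, cells of the macrophage lineage are a known source of these mediators.

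Total reads in genes, as recovered from the steps in the deposited log2 values (they may be estimates), were 39624311 to 41953603 in the FeM CM libraries and 43419446 to 50557794 in the C CM libraries. The 8 genes had between 1124 reads (Ltc4s) and 84023 reads (Pla2g4a) over the 6 libraries. Markers shared by macrophages and microglia were abundant, with summed levels of 116887 to 118104 normalized counts with FeM CM and 137519 to 142929 with C CM. Of 9 markers that set microglia apart from other macrophages, Sall1 and Siglech had no row, and P2ry12 (3 reads over the 6 libraries), Fcrls (5), Gpr34 (5) and Tmem119 (21) were at or near 0. Cx3cr1 and Olfml3 were among the microglial markers measured above the filter. Mast cell markers, the cells best known for Ltc4s, summed to 0 to 5.12 normalized counts with FeM CM and 0 to 5.05 with C CM, and 6 of the 8 had no row. Of 9 neutrophil markers, 5 (Ly6g and S100a9 among them) had no row, Mpo and Elane were near 0, and S100a8 and Csf3r rose. Their list summed to 430 to 477 normalized counts with FeM CM and 142 to 163 with C CM. Astrocyte markers summed to 4182 to 4367 normalized counts with FeM CM and 3362 to 3652 with C CM (2 rose and 1 fell of 4 tested). Most of this sum came from Aldoc (means of 3089 with FeM CM and 2589 with C CM) and Gja1 (1084 and 769), which rose. Aldh1l1 fell, Gfap had means of 28.1 with FeM CM and 28.4 with C CM, S100b was below the filter and Aqp4 had no row. Oligodendrocyte markers summed to 6139 to 6351 with FeM CM and 8821 to 9383 with C CM (1, Mag, rose and 3, Cldn11 among them, fell of 5 tested). Most of that sum came from Mbp (means of 4101 with FeM CM and 6608 with C CM) and Cnp (1827 and 2015), and Mog and Olig2 had no row. Neuron markers summed to 55.3 to 69.6 with FeM CM and 5.88 to 16.6 with C CM, and 4 of 6 had no row. Tubb3 was the 1 neuron marker tested and was called higher. Its C CM values (2.9, 4.2 and 7.8) were all under 10 normalized counts, so it passed the filter only through the FeM CM libraries. Fibroblast and endothelial markers summed to 397 to 447 with FeM CM and 309 to 327 with C CM, and Dcn and Pecam1 rose of 3 tested. Dcn had 6.86, 11.8 and 6.85 normalized counts with C CM, so it too needed the FeM CM libraries to pass the filter. The astrocyte markers Slc1a2 (3 reads over the 6 libraries) and Slc1a3 (5), the neuron marker Map2 (21) and the fibroblast markers Col1a1 (10), Col1a2 (1) and Col3a1 (6) were at or near 0. The part of these transcripts in the results was not tested.

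The 3 phospholipases A2 among the 8 genes are shown by the 250 bases before their transcription start, as RefSeq gives them on GRCm38.p6. They were chosen because all of them rose with ferroptotic medium. Other phospholipases A2, described further below, rose, fell or did not pass. The sources used here do not name the build of the authors' own alignment. Entries were found for 7 of the 9 symbols, and not for Alox5ap or Cysltr1. Sequences are written 5′ to 3′ on the strand of the gene. Capitals mark matches to any of 8 motifs searched on both strands, namely those of AP-1 (TGACTCA), of NF-kB (GGANTTTCC), the antioxidant response element of NRF2 (TGACNNNGC), the element of ATF4 (TGATGCAA), the GC box (GGGCGG), and the motifs of PU.1 (GAGGAAGT), of C/EBP (TTGCNNAA) and the TATA box (TATAAA).
Pla2g4a, chr1:149961291-149961540, minus strand: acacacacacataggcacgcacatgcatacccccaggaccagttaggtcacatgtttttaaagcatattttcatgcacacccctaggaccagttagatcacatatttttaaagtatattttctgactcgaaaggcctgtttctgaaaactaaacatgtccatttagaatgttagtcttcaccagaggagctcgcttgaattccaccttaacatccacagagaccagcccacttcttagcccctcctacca
Pla2g6, chr15:79328372-79328621, minus strand: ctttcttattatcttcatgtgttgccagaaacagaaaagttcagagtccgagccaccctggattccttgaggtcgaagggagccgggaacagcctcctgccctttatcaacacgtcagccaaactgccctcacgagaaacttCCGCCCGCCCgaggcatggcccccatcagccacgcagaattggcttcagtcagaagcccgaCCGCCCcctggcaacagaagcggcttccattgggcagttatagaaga
Pla2g15, chr8:106150104-106150353, plus strand: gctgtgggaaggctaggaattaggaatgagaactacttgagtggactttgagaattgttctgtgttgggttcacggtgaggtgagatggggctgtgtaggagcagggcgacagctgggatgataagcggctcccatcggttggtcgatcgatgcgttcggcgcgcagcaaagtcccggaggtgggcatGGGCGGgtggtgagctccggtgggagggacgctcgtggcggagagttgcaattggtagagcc
The Pla2g4a window held no match to any of the 8 motifs, and 43.2% of its bases were G or C. The Pla2g6 window held 3 GC boxes, of which a pair overlapped, and the Pla2g15 window held 1, in sequence with 55.6% and 58.8% G or C. A GC box was present in 32.7% of the 32851 windows of this length in the table. AP-1, NRF2, NF-kB and ATF4 letters stood in 4.46%, 10.2%, 1.07% and 0.791% of all windows and in none of these 3. Pla2g4a has a further annotated start, whose window is not shown and held a TATA box match that begins 200 bases before that start.

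The question put to these genes was what ferroptotic-macrophage medium does to their expression in microglia. With FeM CM, 3 intracellular phospholipases A2 (Pla2g4a, Pla2g6 and Pla2g15) rose by about the same modest amount, and the cysteinyl leukotriene receptor Cysltr1 fell to well below its level with C CM. None of the 4 genes of leukotriene synthesis passed the test. In counts, 3 of the 8 genes were higher and 1 was lower at an adjusted p below 0.05, where 19.7% of all 15597 genes tested were higher, 22.8% were lower and 42.5% passed in either direction. The count of these genes past the threshold is thus near the share of all genes. Their median log2 difference was 0.04, against -0.0050 over all genes tested. The test was limma on the deposited log2 values, fitted to every gene that reached 10 normalized counts in 3 or more libraries, with Benjamini-Hochberg adjustment. These are bulk samples, so fewer cells of a type and less RNA per cell cannot be told apart.

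**Figure D1:**
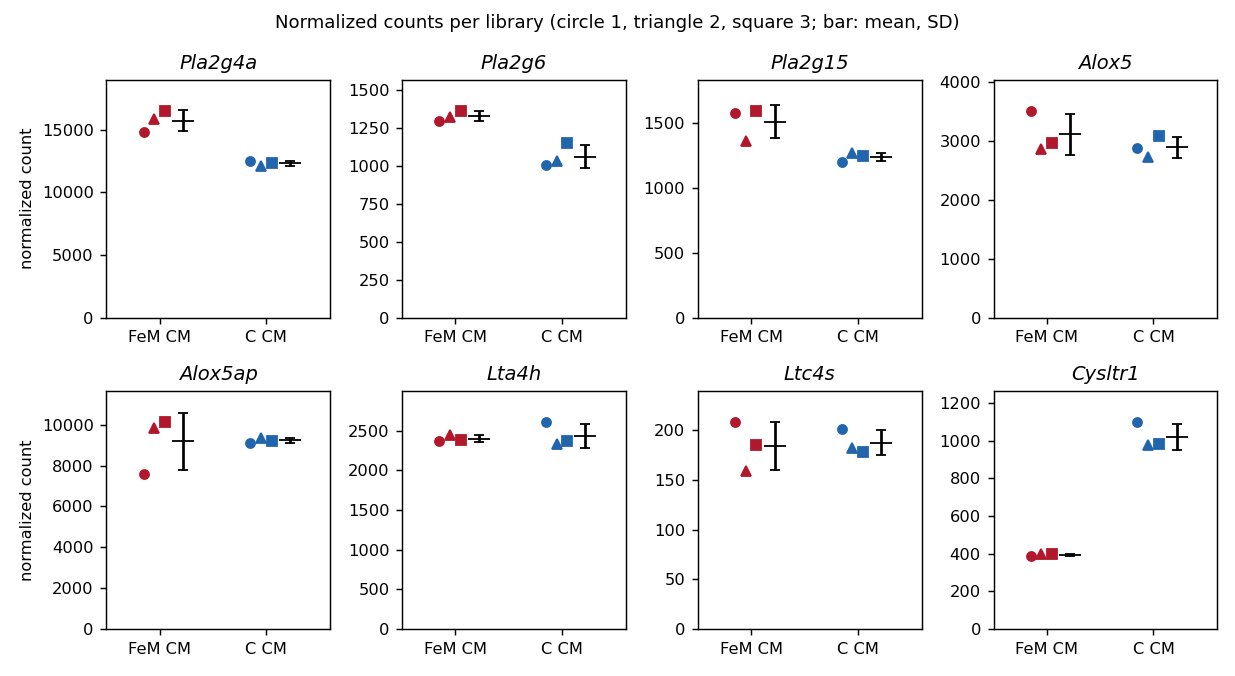
Normalized counts (vertical axes, from 0) of the 8 genes in each FeM CM library (red) and each C CM library (blue), with circles, triangles and squares for replicates 1, 2 and 3 and black bars for the mean and SD of 3 libraries. All FeM CM libraries lie above all C CM libraries for Pla2g4a, Pla2g6 and Pla2g15 and below them for Cysltr1, and the groups overlap for the other 4 genes.

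Pla2g4a encodes the cytosolic, calcium-dependent phospholipase A2 that prefers phospholipids carrying arachidonic acid. It had 14803, 15831 and 16507 normalized counts with FeM CM, against 12469, 12096 and 12346 with C CM. Every FeM CM library was above every C CM library, and the spread was wider with FeM CM. The means were 15714 ± 858 with FeM CM and 12304 ± 190.0 with C CM (SD, n = 3 each). The log2 difference was 0.35 (SE 0.04; limma adjusted p = 0.000182), a 1.28-fold higher level with a 95% interval of 1.19 to 1.36. A difference of this size or larger in either direction was seen in 43.3% of all genes tested.

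Pla2g6 encodes the calcium-independent phospholipase A2 beta, a repair enzyme of membrane phospholipids whose loss in humans causes infantile neuroaxonal dystrophy. Its values were 1295, 1322 and 1361 normalized counts with FeM CM and 1002, 1029 and 1148 with C CM. The groups did not overlap, and here the C CM libraries were the more spread, with replicate 3 nearest to the FeM CM libraries. FeM CM minus C CM was 0.33 on the log2 scale (SE 0.07; limma adjusted p = 0.00516), a fold of 1.25 (95% interval 1.12 to 1.40).

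Pla2g15 encodes the lysosomal phospholipase A2, an acid enzyme that is abundant in alveolar macrophages. Its values were 1574, 1364 and 1594 normalized counts with FeM CM and 1203, 1267 and 1245 with C CM. The groups did not overlap, but FeM CM replicate 2 lay closer to the C CM libraries than to the other FeM CM libraries. On the log2 scale the difference was 0.28 (SE 0.07; limma adjusted p = 0.0129), a fold of 1.22 (95% interval 1.08 to 1.37). Groups that did not overlap were found for 25.6% of all genes in the higher direction, 28.2% in the lower and 53.7% in either direction, and for 3 and 1 of these 8 genes.

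Alox5, the enzyme that starts leukotriene synthesis, had 3517, 2867 and 2968 normalized counts with FeM CM and 2877, 2732 and 3085 with C CM. FeM CM replicate 1 was the highest of the 6 libraries, and the other FeM CM libraries fell among the C CM values. The log2 difference was 0.10 (SE 0.08; limma adjusted p = 0.374), with a 95% interval of -0.09 to 0.29.

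Alox5ap encodes FLAP, the nuclear membrane protein that presents arachidonic acid to 5-lipoxygenase. It had 7593, 9831 and 10129.6 normalized counts with FeM CM and 9125, 9350.3 and 9226 with C CM. FeM CM replicate 1 was the lowest of the 6 libraries, and the other FeM CM libraries were the highest. The SD on the log2 scale was 0.23 with FeM CM and 0.02 with C CM. Between the media the log2 difference was -0.02 (SE 0.11; limma adjusted p = 0.912), with a 95% interval of -0.30 to 0.27. Without FeM CM replicate 1 the log2 difference was 0.11 (limma adjusted p = 0.0247), so this library decided both the sign and the call. In that library Alox5 was the highest and Alox5ap the lowest of the 6.

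Lta4h, the cytosolic hydrolase that makes leukotriene B, had 2364, 2449.6 and 2381 normalized counts with FeM CM and 2606, 2325 and 2367 with C CM. The FeM CM values lay within the range of the C CM values. The fitted log2 difference was -0.02 (SE 0.06; limma adjusted p = 0.818). Its 95% interval, -0.15 to 0.11, was the narrowest among the 4 genes of leukotriene synthesis.

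Ltc4s, the membrane enzyme that adds glutathione to leukotriene A and is a relative of FLAP, had 208, 159.6 and 185 normalized counts with FeM CM and 202, 182 and 178 with C CM. The highest and the lowest of the 6 values were both FeM CM libraries. The log2 difference was -0.03 (SE 0.14; limma adjusted p = 0.884), with a 95% interval of -0.35 to 0.29. Ltc4s shares 268 exonic bases with Gm26542 on the other strand, which averaged 32.9 normalized counts over the 6 libraries beside 186 for Ltc4s. Alox5ap shares 189 exonic bases with Gm19719, also on the other strand, which averaged 78.2 beside 9209. The sources used here do not say whether counting used strand, so reads of these pairs may be mixed.

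Cysltr1 encodes the receptor for cysteinyl leukotrienes that montelukast blocks. It had 387, 398 and 395 normalized counts with FeM CM and 1098, 977 and 982 with C CM. The groups were far apart, and the FeM CM libraries were almost equal. The means were 393 ± 5.72 with FeM CM and 1019 ± 68.3 with C CM (SD, n = 3 each). On the log2 scale Cysltr1 differed by -1.37 (SE 0.08; limma adjusted p = 2.05e-06), which is 0.387 of the C CM level with a 95% interval of 0.342 to 0.438. A difference of at least this size in either direction was seen in 5.54% of all genes tested. In the authors' deposited table Cysltr1 was the only 1 of the 8 genes among their 1699 changed genes, which all had an absolute log2 fold change of at least 1. Its FPKM in the authors' deposited table was 1.55, 1.59 and 1.55 in the FeM CM libraries and 4.45, 3.95 and 3.94 in the C CM libraries. The authors' deposited table gave a false discovery rate below 0.05 to 4 of the 8 genes, Pla2g4a, Pla2g6, Pla2g15 and Cysltr1.

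**Figure D2:**
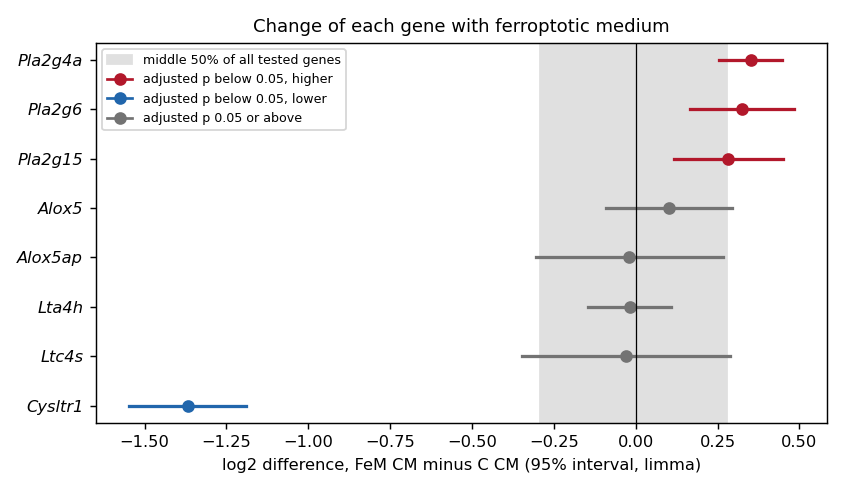
Log2 difference between FeM CM and C CM (horizontal axis) for each of the 8 genes (vertical axis), with bars for the 95% limma interval and a grey band for the middle 50% of the 15597 genes tested. Cysltr1 lies at -1.37, the 3 phospholipases A2 at 0.28 to 0.35, and the intervals of the 4 genes of leukotriene synthesis include 0.

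The 3 genes whose values, each centred on its own mean over the 6 libraries, lay closest to those of Cysltr1 were Neil3, a DNA glycosylase, Rgs2, a regulator of G protein signalling, and Mcm6, a subunit of the replicative helicase. Their root mean square differences from Cysltr1 were 0.0479, 0.0508 and 0.0520 on the log2 scale. Their log2 differences between FeM CM and C CM were -1.35, -1.35 and -1.35 (limma adjusted p = 1.8e-06, 2.66e-07 and 5.18e-08). Genes were picked for this likeness, so these values describe the choice.

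Levels were compared between genes as normalized counts per kilobase of merged exons, using GENCODE M21 exon lengths. The measure was checked over 1315 of the authors' changed genes, those with an FPKM above 0.1. There it followed the deposited FPKM closely (Pearson r = 0.999 across genes, which are not independent replicates). Of the 8 genes only Cysltr1 was among them, so the scale was not checked for the others. Alox5ap was the highest of the 8, at 6468 ± 976 normalized counts per kilobase with FeM CM and 6503 ± 79.6 with C CM, above 98.0% of all genes tested with C CM. Pla2g4a followed, at 2459 ± 134 with FeM CM and 1925 ± 29.7 with C CM. Alox5 came next, at 759 ± 85.1 with FeM CM and 706 ± 43.2 with C CM.

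With FeM CM the order then ran Pla2g15 (501 ± 42.3), Lta4h (393 ± 7.43), Pla2g6 (244 ± 6.11), Ltc4s (182 ± 24.1) and Cysltr1 (76.5 ± 1.11), all per kilobase. No neighbours in that order overlapped between libraries. With C CM, Pla2g15 (411 ± 10.8) and Lta4h (399 ± 24.9) overlapped, and so did Cysltr1 (198 ± 13.3), Pla2g6 (195 ± 14.3) and Ltc4s (185 ± 12.4). Cysltr1 thus stood level with Pla2g6 and Ltc4s with C CM and last with FeM CM.

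**Figure D3:**
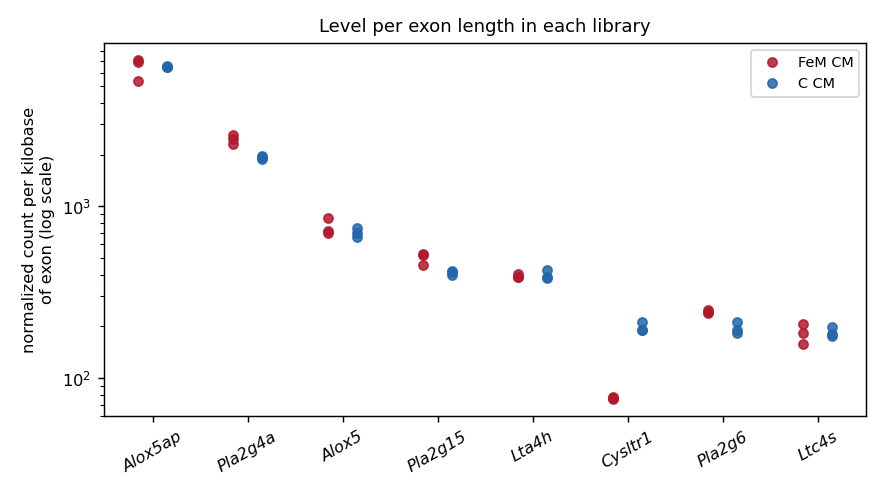
Normalized counts per kilobase of merged exons (vertical log axis) for the 8 genes, with 1 point per library, FeM CM in red to the left of C CM in blue. Alox5ap and Pla2g4a lie above the other genes with either medium, and Cysltr1 is the lowest only with FeM CM.

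Other genes of phospholipid and leukotriene metabolism were described by 8 lists of 83 genes in all. Of these, 60 passed the filter, 25 were higher and 16 lower with FeM CM, with a median log2 difference of 0.21 beside -0.0050 over all genes. Over all genes tested, 19.7% were higher and 22.8% lower, and the counts of each list below stand beside those shares. Genes with no row (13) were not analysed here, and 10 were below the filter.

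Of 5 secreted phospholipases A2 tested, Pla2g2e, Pla2g5 and Pla2g12a rose and 0 fell, with a median log2 difference of 0.59. Pla2g5, the group V enzyme of macrophages, had 10703 ± 1322 normalized counts with FeM CM and 7070.3 ± 733 with C CM (log2 difference 0.60, SE 0.12; limma adjusted p = 0.00981). Pla2g2e had 829 ± 18.7 with FeM CM and 496 ± 28.8 with C CM, and Pla2g12a had 1696 ± 14.3 with FeM CM and 1339 ± 63.8 with C CM. Pla2g2a and Pla2g2d did not pass, at means of 15.8 and 9.57 with FeM CM and 12.9 and 6.58 with C CM. The median of the list is the value of Pla2g2d (SE 0.62, limma adjusted p = 0.493), which had 49 reads over the 6 libraries.

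Other intracellular phospholipases split. Of 10 tested, Pnpla8 and Pnpla6 rose and Pla2g4c, Pla2g4f and Pnpla7 fell, with a median of 0.12. Pnpla8, the calcium-independent phospholipase A2 gamma of mitochondria and peroxisomes, had 2008, 2077 and 1695 normalized counts with FeM CM and 956, 1092 and 819 with C CM. All FeM CM libraries were above the C CM libraries (log2 difference 1.01, SE 0.12; limma adjusted p = 0.000302). Pla2g4c, a calcium-independent relative of Pla2g4a, had 71.2, 43.0 and 41.0 with FeM CM and 270.3, 133 and 229 with C CM (-1.99, SE 0.32; limma adjusted p = 0.00135). Pla2g4f had 7.82 ± 1.72 with FeM CM and 38.4 ± 6.85 with C CM (-2.16, SE 0.36; limma adjusted p = 0.00134). Its FeM CM values (9.57, 6.14 and 7.75) were all under the filter of 10 normalized counts. It was thus tested only through the C CM libraries, where it was high, and its call is tied to that filter. The paralogues Pla2g4b (0.22) and Pla2g4e (0.22) did not pass (limma adjusted p = 0.784 and 0.917), at 67 and 53 reads over the 6 libraries. Pla2g4b shares 3878 exonic bases with Gm28042 on its own strand, which averaged 67.7 normalized counts beside 11.2 for Pla2g4b. Reads of this pair may be mixed. Pnpla7 fell by 0.38 and Pnpla6 rose by 0.20 on the log2 scale.

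Among genes of platelet-activating factor, Pafah2, Lpcat2 and Ptafr rose and Pafah1b2, Pafah1b3 and Lpcat1 fell, of 7 tested (median 0.13). Pafah2, an intracellular hydrolase of platelet-activating factor and oxidized phospholipids, had 1644 ± 109 normalized counts with FeM CM and 855 ± 9.66 with C CM (0.94, SE 0.07; limma adjusted p = 7.32e-06). Lpcat2, which makes platelet-activating factor in activated macrophages, had 2478 ± 198 with FeM CM and 1473 ± 56.4 with C CM (0.75, SE 0.07; limma adjusted p = 3.44e-05). Ptafr, the receptor, had 471 ± 21.7 with FeM CM and 302 ± 28.5 with C CM. The falls were smaller, at -0.16 (Pafah1b2), -0.20 (Pafah1b3) and -0.37 (Lpcat1), and Pafah1b3 lost its call in 10 of 14 alternatives, among them the omission of any 1 library. Pafah1b2 lost its call without the trend and robust settings (limma adjusted p = 0.0599).

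Of 8 tested genes that return arachidonic acid to phospholipids, Acsl4 and Lpcat3 rose and Acsl3, Acsl5 and Mboat1 fell (median -0.13). Acsl4, the arachidonate-preferring acyl-CoA synthetase that promotes ferroptosis, had 13478 ± 1589 normalized counts with FeM CM and 10455 ± 237 with C CM (0.36, SE 0.09; limma adjusted p = 0.0154). Its adjusted p was 0.0543 without FeM CM replicate 2, 0.0546 without C CM replicate 1 and 0.0564 without C CM replicate 2. Mboat1 had 438 ± 41.5 with FeM CM and 1035 ± 24.0 with C CM (-1.24, SE 0.09; limma adjusted p = 6.77e-06). Acsl3 (-0.22) had an adjusted p of 0.0516 without FeM CM replicate 2 and 0.0569 without C CM replicate 3. Lpcat3 shares 334 exonic bases with Emg1 on the other strand, which averaged 4722 normalized counts over the 6 libraries beside 2693 for Lpcat3. Acsl5 shares exonic bases with Zdhhc6 on the other strand (10657 and 2895), and Acsl3 with Utp14b on its own strand (1905 and 499). Reads of these pairs may be mixed.

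Of 11 tested genes of the export, conversion and breakdown of leukotrienes, 8 rose and 1, Mgst3, fell, with a median log2 difference of 0.52, where 19.7% of all genes rose and 22.8% fell. With 1 library left out, 6 to 8 of them rose. Abcc1, the transporter that exports leukotriene C and glutathione conjugates, had 33211 ± 255 normalized counts with FeM CM and 14845 ± 751 with C CM (1.16, SE 0.04; limma adjusted p = 9.25e-08). Abcc4 had 6137 ± 161 with FeM CM and 3736 ± 149 with C CM (0.72, SE 0.04; limma adjusted p = 2.75e-06). Ptgr1, which oxidizes leukotriene B and reduces reactive alkenals, had 1829.8 ± 35.2 with FeM CM and 1111 ± 46.5 with C CM (0.72, SE 0.06; limma adjusted p = 1.42e-05). Dpep2, a dipeptidase that trims cysteinyl leukotrienes, had 4006 ± 74.5 with FeM CM and 2707 ± 116 with C CM (0.57, SE 0.05; limma adjusted p = 1.73e-05). Dpep2 shares 150 exonic bases with Dus2 on the other strand, which averaged 2065 normalized counts beside 3356 for Dpep2, so reads may be mixed.

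Mgst2, a microsomal relative of Ltc4s whose human counterpart can make leukotriene C, had 2309.9 ± 32.0 normalized counts with FeM CM and 1609 ± 49.1 with C CM (0.52, SE 0.05; limma adjusted p = 4.1e-05). Mgst3, from the same family, had 402 ± 23.2 with FeM CM and 645 ± 45.8 with C CM (-0.68, SE 0.09; limma adjusted p = 0.000343). So Mgst2 rose and Mgst3 fell, while Ltc4s itself did not pass. Cyp4f13 (0.48), Ggt7 (0.60) and Cyp4f16 (0.28) also rose. Cyp4f16 lost its call in 7 of 14 alternatives, the omission of FeM CM replicate 2 or 3 or of any C CM library among them. Ggt7 had a limma adjusted p of 0.0554 without FeM CM replicate 2 and 0.0509 without C CM replicate 1. It shares 197 exonic bases with Acss2 on the other strand, which averaged 664 normalized counts beside 230 for Ggt7, so reads may be mixed. Cyp4f18, the mouse enzyme known to hydroxylate leukotriene B, did not pass (40.2 ± 15.0 with FeM CM and 48.5 ± 14.7 with C CM).

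Among 4 other receptors tested, Ltb4r1 and Gpr132 rose and 0 fell (median 0.36). Ltb4r1, the high-affinity receptor for leukotriene B, had 80.8, 99.3 and 60.9 normalized counts with FeM CM and 22.5, 18.5 and 33.3 with C CM. The groups did not overlap (log2 difference 1.67, SE 0.30; limma adjusted p = 0.00192). It thus moved the other way from Cysltr1, at a level that rests on 307 reads over the 6 libraries. The neutrophil marker genes S100a8 (144 ± 14.1 with FeM CM and 13.2 ± 3.46 with C CM) and Csf3r (303 ± 12.9 with FeM CM and 136 ± 9.87 with C CM) rose in the same libraries, and their part in this result was not tested. Gpr132, a receptor for oxidized fatty acids and lysophospholipids, had 566 ± 5.03 with FeM CM and 383 ± 23.8 with C CM. Gpr17 and Fpr2 did not pass (means of 56.8 and 34.4 with FeM CM and 49.5 and 31.5 with C CM). Cysltr2 had no row.

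Of 6 other lipoxygenases, none passed the filter. Alox12b, Alox12e and Alox8 had no row, and Alox12 (21 reads over the 6 libraries), Alox15 (32) and Aloxe3 (32) were below the filter. Alox15 had 4.25, 0 and 0 normalized counts with FeM CM and 10.8, 7.57 and 7.83 with C CM. It was called lower when the filter was lowered to 1 normalized count or removed. Alox5 was therefore the only lipoxygenase measured above the filter.

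Of 15 tested regulators of cytosolic phospholipase A2 and 5-lipoxygenase, 5 rose and 6 fell (median 0.07). Kinases that can phosphorylate the phospholipase rose, namely Mknk1 (0.71), Camk2d (0.42), Mapk3 (0.39) and, for 5-lipoxygenase, Mapkapk2 (0.22), and so did Cotl1 (0.27), which binds 5-lipoxygenase in humans. Mapk14 (-0.11) did not pass. The genes that fell were Anxa1 and S100a10, proteins known as brakes on phospholipase A2, Anxa2, the transcription factors Smad3 and Sp1, and Dicer1. S100a10 had 8581 ± 137 normalized counts with FeM CM and 13069.9 ± 232 with C CM (-0.61, SE 0.03; limma adjusted p = 9.6e-07), and Anxa1 had 3785 ± 134 with FeM CM and 5445 ± 120 with C CM (-0.53, SE 0.04; limma adjusted p = 1.41e-05).

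**Figure D4:**
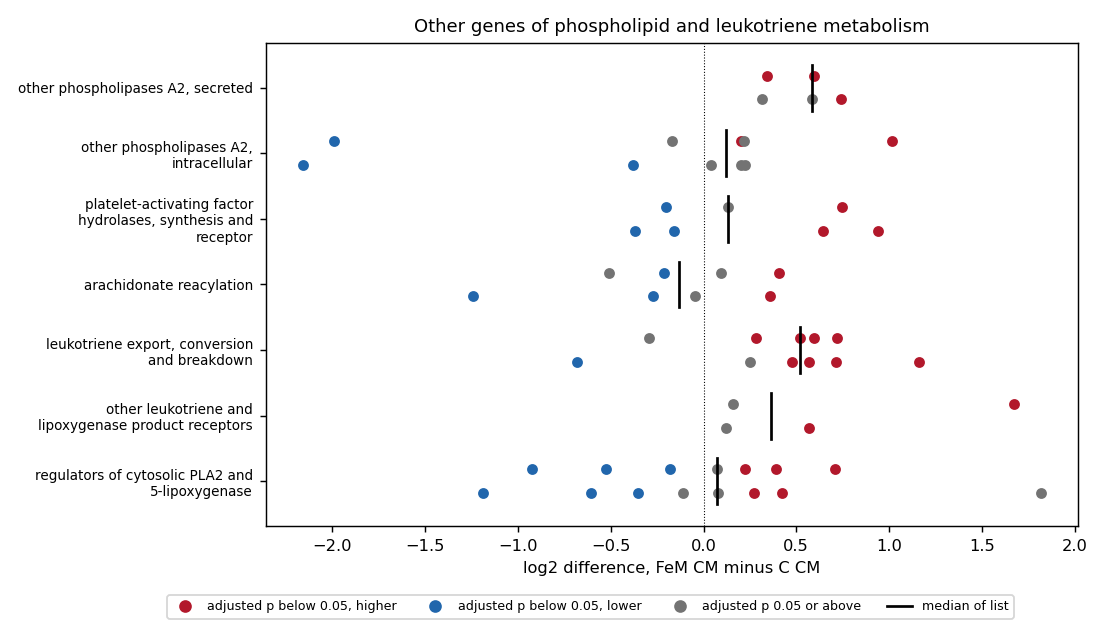
Log2 difference between FeM CM and C CM (horizontal axis) for each tested gene of 7 lists (vertical axis), coloured by whether it was higher (red), lower (blue) or did not pass (grey) at an adjusted p of 0.05, with a black bar at each list's median. The medians run from -0.13 for arachidonate reacylation to 0.59 for secreted phospholipases A2, and the list of other lipoxygenases had no gene above the filter. The median of the secreted phospholipases A2 is the value of Pla2g2d, a gene of few reads that did not pass.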

How the data were processed

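The authors deposited, per the file headers, log2 values per library with group means, log2 fold changes, p-values and false discovery rates, and a shorter table of changed genes with FPKM. The submitters' processing notes name the tools DESeq2 1.18.1, R 3.4.3, HISAT2 2.1.0 and fastp 0.17.1. The sources used here name no build, annotation or counting tool. The deposited log2 values are log2 of a count divided by a size factor, plus 1: undone, 100% were whole multiples of a step per library, within 0.01. Values of 3 outnumbered values of 2 (6101 and 5169), so reads may be estimates. FPKM described Cysltr1 and checked the length scale; deposited p-values were used only for the authors' calls.

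limma 3.58.1 (trend, robust, two-sided; R 4.3.3) was fitted to the 15597 genes reaching 10 normalized counts in 3 or more libraries, with medium as the only term, and tested on simulated data. SEs and intervals are limma's moderated ones. Intervals and SDs carry the spread between libraries. Replicates differed beyond sampling noise (chi-square per degree of freedom 16.6 to 23.3). Alternatives changed the filter, scaling, pseudocount, weights, test and block, and left out each library. The 8 members with a row and their pathway lists were chosen with earlier results of these data known. Named list genes were those called, or the 4 with the smallest p-values of a list; a few others, and markers, were named after their values were seen. No set test was run.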

Additional observations from a re-analysis of the deposited data

How the results depend on the processing

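Pla2g4a (log2 difference 0.32 to 0.39), Pla2g6 (0.29 to 0.38), Pla2g15 (0.24 to 0.36) and Cysltr1 (-1.40 to -1.31) kept their direction and stayed past the threshold in all 14 alternatives, with limma adjusted p of at most 0.0459 (Pla2g15). Alox5 lay between 0.01 and 0.16 and passed in none. Values near 0 changed sign: Alox5ap was 0.00097 with equal library medians and 0.11 (adjusted p = 0.0247) without FeM CM replicate 1, and lay at -0.10 to 0.11 over the omitted libraries. Lta4h was 0.033 with quantile normalization, 0.0014 with equal library medians and -0.051 to 0.032 over the omitted libraries, and Ltc4s was -0.12 to 0.068 over them. Outside the 8 genes, Gpr17 (-0.0022 to 0.41) and Fpr2 (-0.019 to 0.26), given here over the omitted libraries, changed sign without FeM CM replicate 1. The cause was not tested. The number of the 8 genes that were higher was 3 to 4 and the number lower was 1, and the number of all genes was 2630 to 3312 higher and 3012 to 3597 lower. With a minimum of 1 normalized count or no filter, Alox15 was tested and was lower.

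Replicate numbers 1 to 3 stand in both groups with nothing said to pair them, and same-numbered libraries deviated with correlations of -0.04 to 0.01. With the replicate block, 3 of the 8 genes were higher and 1 lower, and 2914 of all genes were higher and 3312 lower; Pla2g5 then had an adjusted p of 0.0567. No library correlated best with its own number. Depth limits the test for genes such as Ltb4r1, Pla2g4f and the lipoxygenases other than Alox5.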
